A study of Mus musculus with 4 samples.

Results

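The libraries compare mouse epidermis with a targeted deletion of the calcium sensor genes Stim1 and Stim2 against floxed controls. In them, 10 transcription factors that set the fate and the differentiation of epidermal keratinocytes were followed. They are Trp63, Klf5, Klf4, Grhl1, Grhl3, Zfp750, Prdm1, Ovol1, Gata3 and Maf, chosen by gene name, and all 10 were found among the 56493 genes of the count table. The cKO group held 2 libraries from mice in which Stim1 and Stim2 were deleted by a Cre recombinase under the keratin 14 promoter, and the control group (F/F) held 2 libraries from mice with floxed Stim1 and Stim2 alleles. The labels do not say whether the controls carried Cre, and give no age, sex or number of mice per library, so p-values measure only the spread between these libraries, which may be technical. The keratin 14 promoter is active in basal keratinocytes and the outer root sheath of the hair follicle, so immune cells and melanocytes of the same epidermal sheet are not its targets. Dorsal epidermis was detached from the dermis with 3.8% sodium thiocyanate for 20 min, and its RNA was read from transcript 3' ends.

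TRP63 (p63) keeps keratinocytes of the basal layer in their epithelial fate, and KLF5 is a Kruppel-like zinc-finger factor of the proliferating compartment. As cells leave the basal layer, calcium rises across the epidermis and another set of factors takes over. KLF4, GRHL1, GRHL3 and ZFP750 (ZNF750 in humans) switch on barrier and cornification genes, PRDM1 (Blimp1) acts as a repressor in the uppermost living layers, OVOL1 restrains the cell cycle of progenitors, GATA3 serves barrier lipid synthesis and the inner root sheath of the hair follicle, and MAF acts in late differentiation. GATA3, MAF and PRDM1 also work in lymphocytes, and MAF in macrophages. The first pair is called basal fate below and the other 8 are called terminal differentiation.

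The libraries were shallow, with total counts of 118858 in cKO replicate 2, the lowest, to 322426 in control replicate 2. Levels are given in CPM, counts scaled to TMM-adjusted library sizes. A count of 0 allows up to 3 counts, which stood for 9.58 to 33.7 CPM, and all such limits and count intervals describe counting error alone. Stim1 was counted 23 and 6 times in the knockout, compared with 24 and 62 times in the floxed libraries. Stim2 had 0 and 1 counts against 3 and 18. For both genes each cKO level thus lay below each control level. Of all tested genes, 19.6% were separated in that direction and 38.5% in either direction. Stim1 was not called (log2 fold change -0.98, edgeR adjusted p 0.671) and Stim2 had too few counts for the test. The keratinocyte markers Krt5, Krt14, Krt1, Krt10, Dsp and Perp were all tested and 0 were called, with 774 to 3800 summed counts per library, while 4 endothelial markers summed to at most 1 count. Replicates of a group differed by more than counting noise, with a chi-square statistic per degree of freedom of 5.98 between the cKO libraries and 5.96 between the control libraries, where counting alone gives about 1.

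Promoter sequences are shown for 3 members that stand for the 3 patterns found below, namely Gata3 (lower in each cKO library than in each control library), Klf4 (nearly equal group means) and Prdm1 (spread between replicates). RefSeq promoter entries (build GRCm38.p6) were matched for 5 of the 10 members, which are Gata3, Klf4, Grhl3, Prdm1 and Grhl1. Each line gives the 250 bases before the transcription start, 5′ to 3′ on the gene's strand. Capitals mark matches, on either strand, to GGAAA (the core of NFAT sites, NFAT being the factor that calcium entry activates through calcineurin), CACCC (a core of Kruppel-like factor sites), TGANTCA (AP-1) and AACCGGTT (Grainyhead-like factors).
Gata3: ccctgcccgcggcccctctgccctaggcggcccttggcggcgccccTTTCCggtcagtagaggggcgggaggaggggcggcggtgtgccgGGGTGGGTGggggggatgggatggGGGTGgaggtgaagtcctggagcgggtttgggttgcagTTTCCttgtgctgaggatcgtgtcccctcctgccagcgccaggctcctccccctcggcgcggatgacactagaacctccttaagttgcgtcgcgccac
Klf4: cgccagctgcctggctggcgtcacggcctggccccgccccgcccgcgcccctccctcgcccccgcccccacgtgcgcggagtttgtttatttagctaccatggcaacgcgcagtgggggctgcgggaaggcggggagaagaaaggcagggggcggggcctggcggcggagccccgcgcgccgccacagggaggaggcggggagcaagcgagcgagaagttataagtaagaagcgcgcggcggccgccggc
Prdm1: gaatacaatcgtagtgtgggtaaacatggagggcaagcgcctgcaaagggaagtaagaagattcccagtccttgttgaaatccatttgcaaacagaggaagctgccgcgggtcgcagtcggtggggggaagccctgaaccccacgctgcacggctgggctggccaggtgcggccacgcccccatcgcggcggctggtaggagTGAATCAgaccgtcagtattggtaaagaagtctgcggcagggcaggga
The Gata3 stretch, chr2:9878601-9878850 on the minus strand, held 2 matches to GGAAA and 3 to CACCC, of which neighbouring matches can overlap. The Klf4 stretch, chr4:55532476-55532725 on the minus strand, held none of the 4 motifs. The Prdm1 stretch, chr10:44458749-44458998 on the minus strand, held 1 TGANTCA. Short motifs are common: of 32851 promoter stretches of this length, 55.6% held GGAAA, 52.0% held CACCC, 6.75% held TGANTCA and 0.116% held AACCGGTT. A match is a description of letters and not evidence of binding.

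No member passed the test between genotypes. In edgeR's quasi-likelihood fit, with p-values adjusted by the Benjamini-Hochberg method over all 4243 tested genes, 0 of the 8 tested members were called higher and 0 lower at an adjusted p under 0.05. Of all tested genes 0.848% were called, with 0.660% higher and 0.189% lower in cKO. The smallest adjusted p among the members was 0.494. DESeq2 and limma-voom also called 0 members. At an unadjusted p under 0.05 there was 1 member, Maf, against 8.39% of all tested genes. The log2 fold changes of the 8 ran from -1.26 to 1.05 with a median of -0.09, beside a median of 0.01 over all tested genes, and 4 lay above and 4 below 0. In 3 of the 8 (37.5%) the levels of the groups did not overlap, close to the 38.5% of all tested genes for which this held. These 3, Gata3, Ovol1 and Maf, were all lower in cKO, where 19.6% of tested genes were separated in that direction. Grhl3 and Zfp750 had too few counts for the test.

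**Figure D1:**
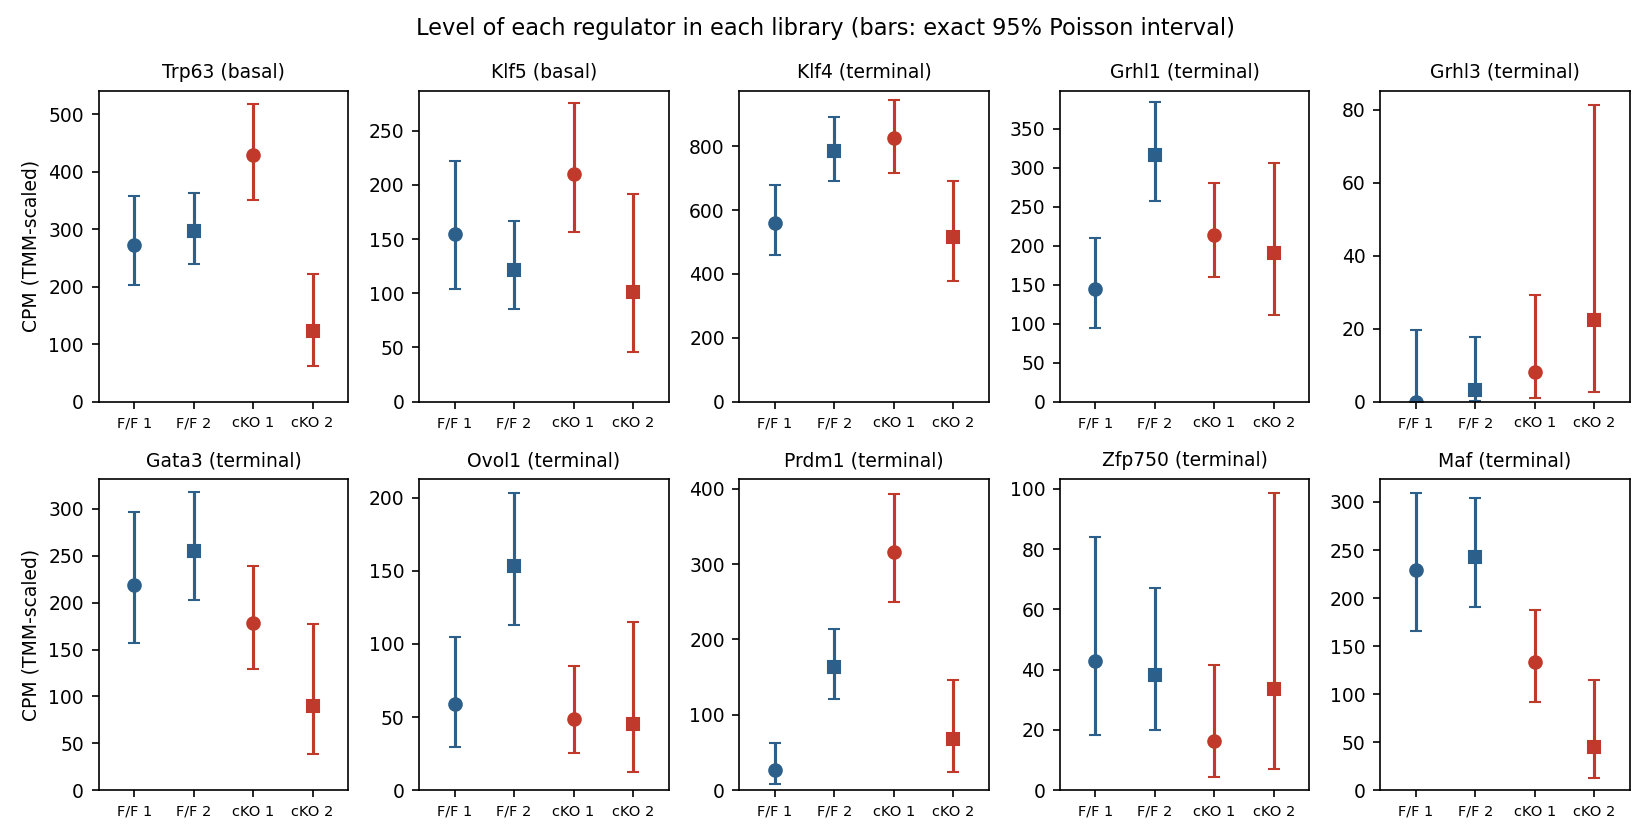
Level of each of the 10 regulators (CPM on TMM-scaled library sizes, linear axes from 0) in the 2 control (F/F, blue) and 2 cKO (red) libraries, circles for replicate 1 and squares for replicate 2, with bars for the exact 95% Poisson interval of the count. Both cKO points lie below both control points for Gata3, Ovol1, Zfp750 and Maf. They lie above both control points for Grhl3, which had at most 2 counts in any library. The cKO points of Trp63 and Prdm1 lie far apart from each other.

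Of the basal fate pair, Trp63 (ENSMUSG00000022510, chromosome 16, 25502513 to 25710852, plus strand) was counted 106 and 11 times in cKO replicates 1 and 2 and 51 and 93 times in control replicates 1 and 2. These counts corresponded to 428.6 and 124 CPM in cKO and to 272 and 297 CPM in control. The control libraries were close to each other, and the cKO libraries lay on opposite sides of them. The cKO mean was 276 ± 216 CPM and the control mean 285 ± 17.6 CPM (SD, n = 2 each). The log2 fold change of Trp63 was 0.03 with a standard error of 0.52 (edgeR adjusted p 0.998), and its 95% interval ran from 0.471-fold to 2.21-fold. The Poisson intervals of the cKO libraries, 350.9 to 518.4 CPM and 61.7 to 221 CPM, did not touch, so the distance between these replicates exceeded counting error. Without cKO replicate 1 the log2 fold change was -1.245.

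Klf5 (ENSMUSG00000005148, chromosome 14, 99536127 to 99552472, plus strand) was counted 52 and 9 times in the knockout and 29 and 38 times in the floxed libraries, or 210.3 and 101 CPM against 155 and 121 CPM. The cKO values again bracketed the control values, with cKO replicate 1 the highest and cKO replicate 2 the lowest of the 4. The log2 fold change of Klf5 was 0.26 with a standard error of 0.50 (edgeR adjusted p 0.987), and it was -0.48 without cKO replicate 1. Summed, the basal fate pair made up 0.0560% of the counts of cKO replicate 1, with a Wilson 95% interval of 0.0479% to 0.0654%, and 0.0168% of cKO replicate 2 (0.0109% to 0.0260%). In the floxed mice it made up 0.0399% (0.0321% to 0.0497%) and 0.0406% (0.0342% to 0.0482%). The ratio of the mean shares, cKO to control, was 0.904. The pair's share was thus alike in both floxed libraries, and the intervals of the knockout libraries lay apart.

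Among the terminal differentiation factors, Klf4 (ENSMUSG00000003032, chromosome 4, 55527143 to 55532466, minus strand) had the most reads, 204 and 46 in the knockout and 105 and 246 in the floxed libraries. This gave 825 and 517 CPM in cKO and 560.3 and 786 CPM in control. The groups overlapped throughout and their means were 671 ± 218 CPM and 673 ± 159 CPM (SD, n = 2 each). The log2 fold change of Klf4 was 0.01 with a standard error of 0.43 (edgeR adjusted p 0.998), and the median over all tested genes was the same value. The 95% interval, 0.525-fold to 1.92-fold, leaves room for a change of that size in either direction.

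The Grainyhead-like pair was represented mainly by Grhl1 (ENSMUSG00000020656, chromosome 12, 24622282 to 24667390, plus strand), a regulator of desmosomal cadherins. Grhl1 was counted 53 and 17 times in the knockout and 27 and 99 times in the floxed libraries, or 214 and 191 CPM against 144 and 316 CPM. Here the cKO libraries were alike and lay between the control libraries. The log2 fold change was -0.19 with a standard error of 0.49 (edgeR adjusted p 0.992), and it was 0.52 without control replicate 2. Grhl3 (ENSMUSG00000037188, chromosome 4, 135269199 to 135300941, minus strand), needed for barrier formation in the embryo, was counted 2 times per cKO library and 0 and 1 times in the floxed libraries. All 4 values were under 3 counts, and no fold change is given. Tgm1, a described target of GRHL3 that crosslinks the cornified envelope, was also sparse, counted 14 and 0 times in the knockout and 0 and 10 times in the floxed libraries.

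Zfp750 (ENSMUSG00000039238, chromosome 11, 121401804 to 121410159, minus strand), a p63 target that acts upstream of KLF4, was counted 4 and 3 times in the knockout and 8 and 12 times in the floxed libraries. The levels, 16.2 and 33.7 CPM against 42.7 and 38.3 CPM, did not overlap between groups, but the Poisson interval of cKO replicate 2 alone ran from 6.95 to 98.5 CPM and covered both control values. In a fit without the count filter its log2 fold change was -0.91 with a standard error of 0.97 (edgeR adjusted p 0.911), where 0.437% of 17179 genes were called.

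Prdm1 (ENSMUSG00000038151, chromosome 10, 44313173 to 44404497, minus strand) varied most, of the tested members, between replicates of the same genotype. It was counted 78 and 6 times in the knockout and 5 and 51 times in the floxed libraries, which is 315 and 67.4 CPM against 26.7 and 163 CPM. Replicate 1 was 4.68 times replicate 2 in cKO, and replicate 2 was 6.10 times replicate 1 in control, each beyond the Poisson intervals. The group means of Prdm1 were 191 ± 175 CPM and 94.8 ± 96.3 CPM (SD, n = 2 each). Its log2 fold change was 1.05 with a standard error of 0.72 (edgeR adjusted p 0.799). The direction rested on single libraries, since the value was -0.61 without cKO replicate 1, 0.33 without control replicate 1 and 2.93 without control replicate 2. Marker lists of fibroblasts, melanocytes and Langerhans cells or macrophages were split across the same libraries in the opposite order. So were those of sebaceous gland, outer root sheath and stem cells, and skeletal muscle. In cKO replicates 1 and 2 and control replicates 1 and 2 the sebaceous list summed to 853, 2484, 1051 and 869 CPM. The outer root sheath and stem list summed to 1945, 2967, 3623 and 3382 CPM, and the muscle list to 16.2, 67.4, 1286 and 894 CPM. The libraries with less Prdm1, cKO replicate 2 and control replicate 1, had more of the 8 fibroblast markers, 3 tested and 1 at 0 everywhere (775.5 and 283 summed CPM, against 52.6 in cKO replicate 1 and 150 in control replicate 2). They also had more of the 5 melanocyte markers, 1 tested and 1 at 0 everywhere (427 and 325.5 against 137.5 and 86.2). That sum was almost all Dct, counted 33 and 36 times in cKO and 61 and 26 times in control. The sum of the 10 Langerhans cell and macrophage markers was also higher in these libraries (3192 and 3831 against 1047 and 2143). Most of it was Cd74 and MHC class II genes, and not every marker followed it. Lyz2 did (1 and 19 counts in cKO, 8 and 6 in control). Cd207 (1 and 0 in cKO, 8 and 10 in control) was not higher in cKO replicate 2. Csf1r (2 and 0, 0 and 4) and Adgre1 (0 and 0, 0 and 7) were at 0 in both libraries with the higher sum. The summed CPM of the keratinocyte markers and of the differentiated keratinocyte genes had the order of Prdm1 within each genotype. Those of the T cell and hair marker lists had it in the cKO libraries only. The part of any of these cells in the spread of Prdm1 was not tested.

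Maf, Gata3 and Ovol1 were the tested members with every cKO level below every control level. Maf (ENSMUSG00000055435, chromosome 8, 116409681 to 116434533, minus strand) was counted 33 and 4 times in the knockout and 43 and 76 times in the floxed libraries. Its levels were 133 and 44.95 CPM in cKO against 229.5 and 243 CPM in control, so the control libraries were nearly equal and the cKO libraries were lower and unequal. The mean was 89.2 ± 62.6 CPM in cKO and 236 ± 9.37 CPM in control (SD, n = 2 each), or 37.8% of control. The log2 fold change of Maf was -1.26 with a standard error of 0.52 (edgeR unadjusted p 0.0300, adjusted p 0.494). It was -2.42 without cKO replicate 1 and -0.81 without cKO replicate 2.

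Gata3 (ENSMUSG00000015619, chromosome 2, 9861889 to 9894845, minus strand) was counted 44 and 8 times in the knockout and 41 and 80 times in the floxed libraries. The levels were 178 and 89.9 CPM in cKO and 219 and 255.5 CPM in control, with means of 134 ± 62.2 CPM and 237 ± 25.95 CPM (SD, n = 2 each). The cKO mean of Gata3 was 56.5% of the control mean and the log2 fold change was -0.75 with a standard error of 0.48 (edgeR adjusted p 0.764). Its 95% interval ran from 0.292-fold to 1.21-fold.

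Ovol1 (ENSMUSG00000024922, chromosome 19, 5599164 to 5610674, minus strand) was counted 12 and 4 times in the knockout and 11 and 48 times in the floxed libraries. Its levels of 48.5 and 44.95 CPM in cKO lay just under the 58.7 CPM of control replicate 1 and far under the 153 CPM of control replicate 2. The log2 fold change of Ovol1 was -1.19 with a standard error of 0.67 (edgeR adjusted p 0.716), and without control replicate 2 it was -0.30. Exons of Ovol1 share 696 bases with Gm31166 on the opposite strand, and those of Maf share 440 bases with Gm15655. Those of Gata3 share 155 bases with Gm13256 on the opposite strand and 77 bases with 9230102O04Rik on the same strand. These other genes had at most 2 counts in any library. As the strand setting is not given, their low counts cannot show whether reads in the shared bases were left out.

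**Figure D2:**
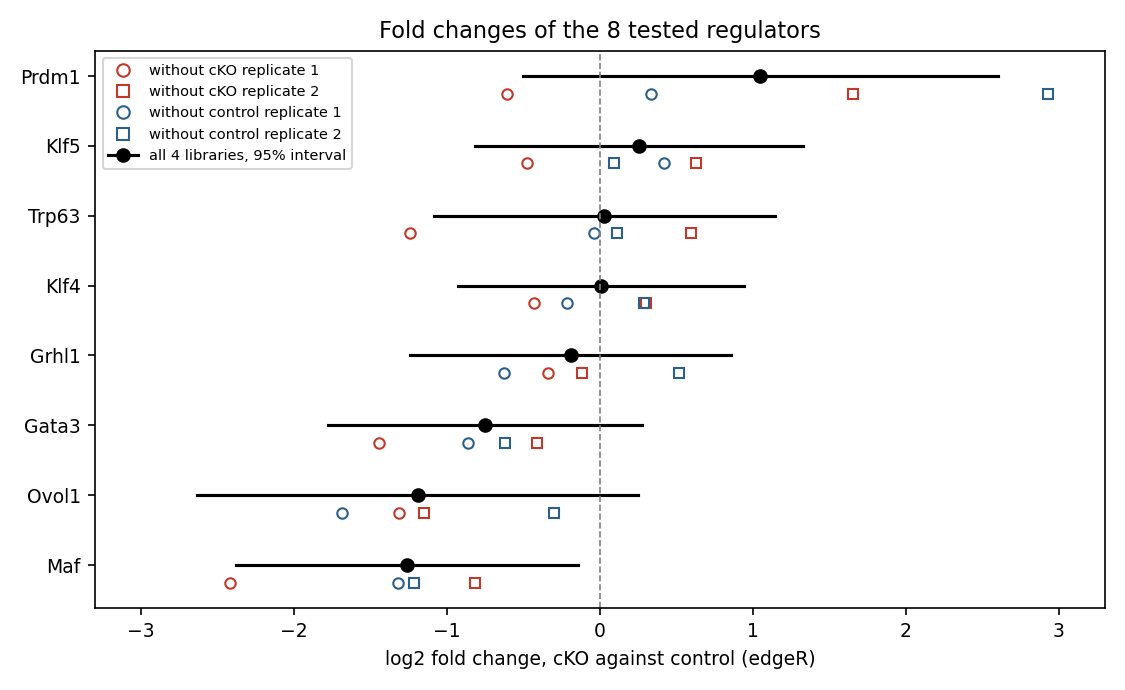
Log2 fold change of the 8 tested regulators, cKO against control, from edgeR with all 4 libraries (black points, bars for the 95% interval) and with 1 library left out (open symbols, colour and shape naming the library left out). Maf, Gata3 and Ovol1 stay below 0 with any library left out, while Prdm1 runs from -0.61 to 2.93.

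Maf and Gata3 are also expressed by cells other than keratinocytes, and several marker lists had levels that separated the genotypes. The hair shaft and inner root sheath markers summed to 549.9 and 449.5 CPM in cKO against 1644 and 1641 CPM in control. Of the 9 found in the table, 3 were tested, 0 were called and 3 were at 0 in all libraries. Most of that sum was Tchh (99 and 26 counts against 257 and 398). The keratins Krt25, Krt28 and Krt71 had at most 3 counts in any library. The 7 skeletal muscle markers summed to 16.2 and 67.4 CPM against 1286 and 894 CPM, with 6 tested and 4 called lower. The Langerhans cell and macrophage markers, 4 of 10 tested and 0 called, overlapped between groups at 1047 and 3192 CPM against 3831 and 2143 CPM. Most of that sum came from Cd74 and MHC class II genes, and the Langerhans cell marker Cd207 had 1 and 0 counts in cKO against 8 and 10, lower in both cKO libraries as Maf was. The 10 T cell markers summed to 295 and 258.5 CPM against 347 and 294 CPM, with 4 tested and 0 called. Within that list, Thy1 made up 42 of the 73 counts of cKO replicate 1. Ptprc (2 and 4 counts against 26 and 18) and Cd3e (1 and 0 against 4 and 5) were lower in both cKO libraries. So was Trdc (0 and 0 against 2 and 9). Il7r (12 and 6 against 2 and 7) was higher in both cKO libraries in CPM, and Cd3d and Cd3g overlapped between groups. The median log2 fold change of the tested T cell markers was 0.44. The 9 sebaceous gland markers stood apart in cKO replicate 2, at 2484 CPM against 853 to 1051 CPM elsewhere. The 7 outer root sheath and stem markers summed to 1945 and 2967 CPM in cKO against 3623 and 3382 CPM in control. Of these, Krt15 (208 and 138 counts against 535 and 657) and Krt75 (42 and 18 against 81 and 312) were lower in cKO. Krt79 (223 and 94 against 51 and 80) and Lhx2 (2 and 7 against 0 and 1) were higher. The part of these cells in the levels of Maf, Gata3 and Ovol1 was not tested. In bulk epidermis, fewer cells of a type and less RNA per cell cannot be told apart.

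**Figure D3:**
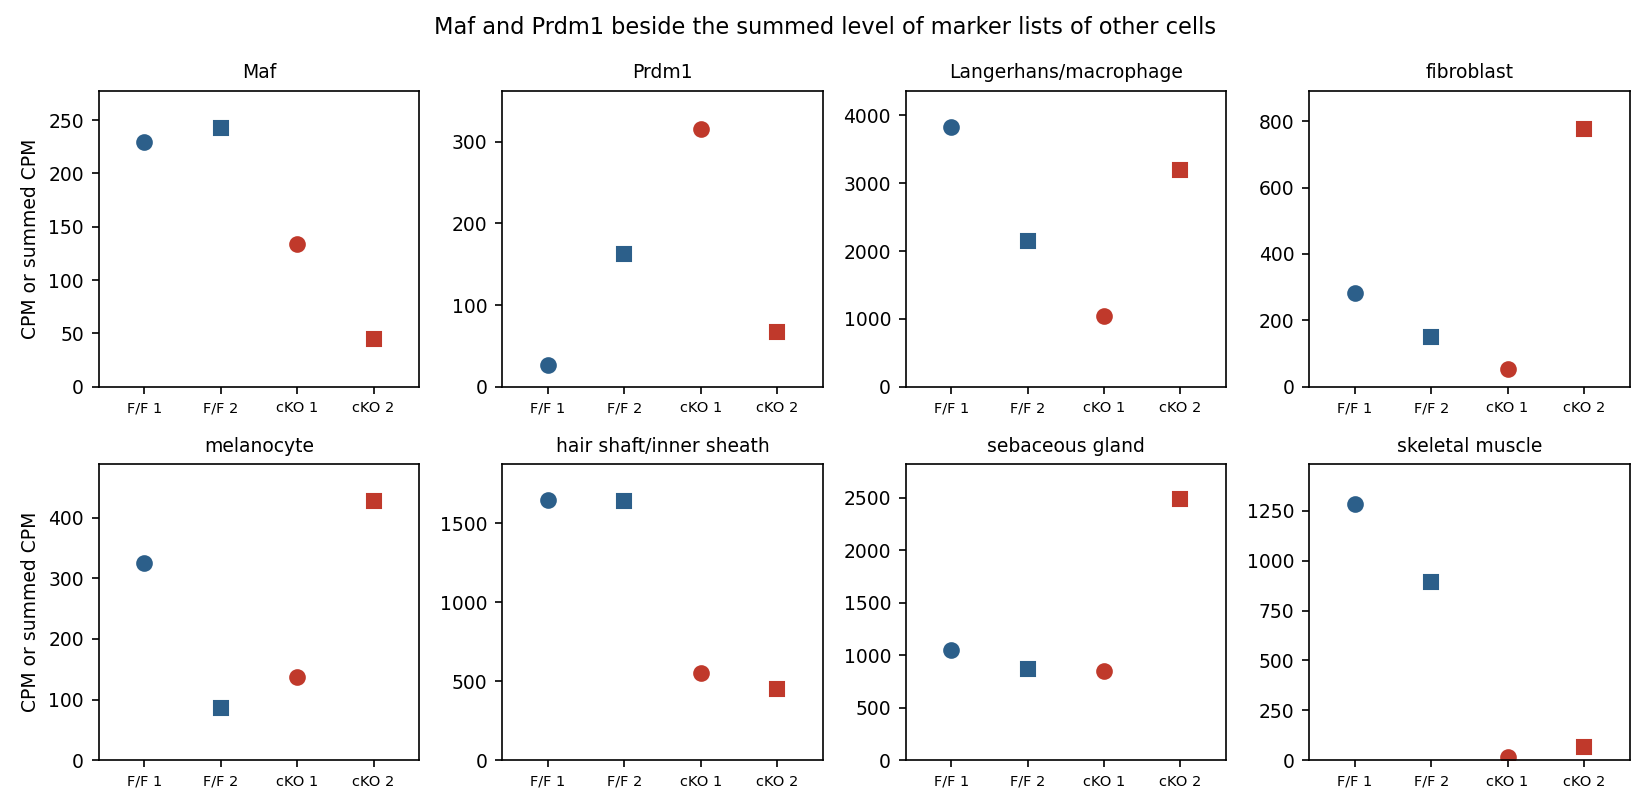
Levels of Maf and Prdm1 (CPM) and summed levels of 6 marker lists of other cells (summed CPM) in each library, all axes linear from 0, control (F/F) in blue and cKO in red. The muscle list and the hair list, most of which is Tchh, are lower in both cKO libraries, as Maf is. Of all tested genes, 19.6% were separated in that direction. The fibroblast, melanocyte (almost all Dct), Langerhans or macrophage, sebaceous and muscle lists run opposite to Prdm1 within each group. They are high in cKO replicate 2 and control replicate 1 relative to the other library of their group.

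Because scaling can shift all genes of a library, each regulator was also set against Klf4 reads of the same library, a ratio that needs no scaling. It uses the same counts, and Klf4 had nearly equal group means in CPM (671 and 673), so it is not an independent check of the CPM comparison. Per 100 Klf4 reads there were 16.2 and 8.70 Maf reads in the cKO libraries and 40.95 and 30.9 in the control libraries. For Gata3 the ratios were 21.6 and 17.4 in cKO against 39.05 and 32.5 in control. For Ovol1 they were 5.88 and 8.70 against 10.5 and 19.5. These 3 members, which were also separated in CPM, were lower in both cKO libraries, as were 17.3% of all tested genes on this scale (31.0% separated in either direction). Per 100 Trp63 reads, Maf (31.1 and 36.4 in cKO against 84.3 and 81.7 in control) and Gata3 (41.5 and 72.7 against 80.4 and 86.0) were separated, while Ovol1 (11.3 and 36.4 against 21.6 and 51.6) overlapped. On that scale 9.57% of all tested genes were lower in both cKO libraries and 19.8% were separated in either direction. Relative to Klf4, Trp63 ratios of 52.0 and 23.9 in cKO against 48.6 and 37.8 in control overlapped, as did those of Klf5, Grhl1, Prdm1 and Zfp750. Zfp750, separated in CPM, had 1.96 and 6.52 reads per 100 Klf4 reads in cKO against 7.62 and 4.88 in control.

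**Figure D4:**
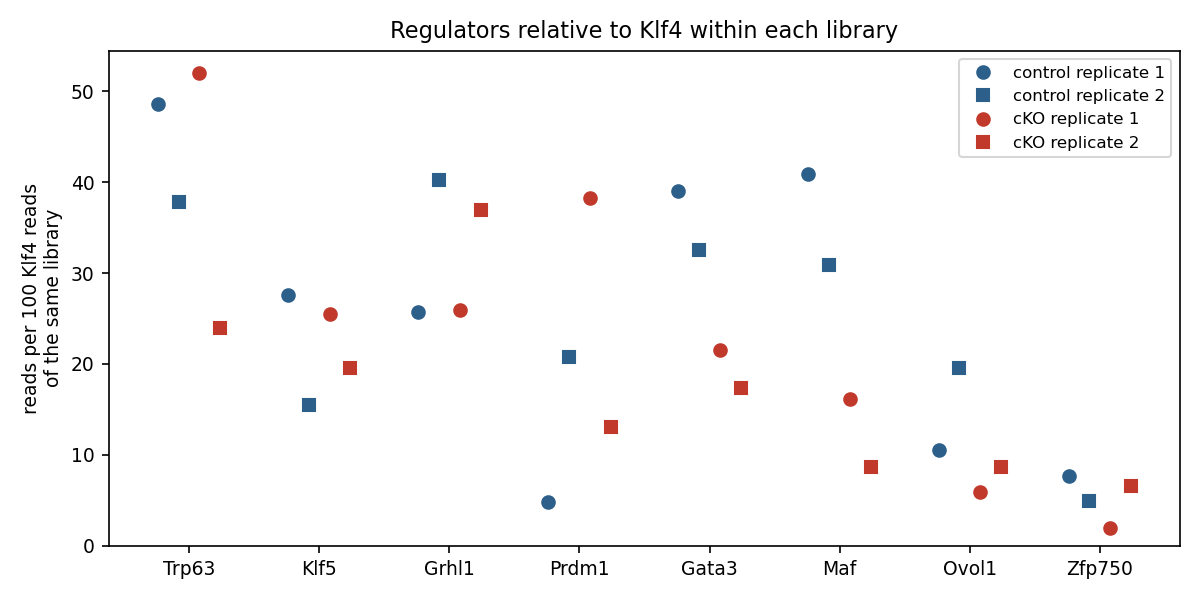
Reads of 8 regulators per 100 Klf4 reads of the same library (linear axis from 0), control in blue and cKO in red, circles for replicate 1 and squares for replicate 2. Gata3, Maf and Ovol1 have both cKO points below both control points, as 17.3% of all tested genes do on this scale, and the other 5 overlap.

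Summed by role, the terminal differentiation factors did not separate the genotypes. Their 8 genes summed to 430 and 90 counts in the knockout and to 240 and 613 in the floxed libraries. These were 0.152% (95% Wilson interval 0.139% to 0.168%) and 0.0757% (0.0616% to 0.0930%) of the library in cKO, and 0.120% (0.106% to 0.136%) and 0.190% (0.176% to 0.206%) in control. The lowest share was in cKO replicate 2 and the highest in control replicate 2, with the other libraries between. The mean share in cKO was 0.736 of that in control, against 0.849 on TMM-scaled sizes. On the log2 scale the ratio of mean shares was -0.44, and it was -1.03 without cKO replicate 1, -0.74 without control replicate 1, -0.07 without control replicate 2 and -0.02 without cKO replicate 2. Over the 6 tested factors the median log2 fold change was -0.47. Relative to Trp63, there were 192.5 and 418 Klf4 reads per 100 Trp63 reads in cKO against 206 and 264.5 in control, so the balance between the leading factor of each role also overlapped.

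Within the set, levels per kilobase of annotated exon gave the order Klf4 (220.4 CPM per kb, mean of 4 libraries), Gata3 (46.6), Grhl1 (39.1), Trp63 (33.4), Klf5 (28.2), Prdm1 (25.7), Ovol1 (21.9), Maf (19.7), Zfp750 (10.1) and Grhl3 (3.03). Reads of a 3' library come from transcript ends, so this division lowers long genes such as Trp63 and Maf. Klf4 was at 170 to 270.5 CPM per kb, above every other member in every library. From Gata3 downward the ranges over libraries overlapped between neighbours in this order. On the pattern over the 4 libraries, the tested genes nearest to Klf4 in centred log2 CPM were Actr2, Zfp410 and Klc3, at Euclidean distances of 0.0101, 0.0738 and 0.0865. Those nearest to Trp63 were Pou3f1, Sae1 and Rapgef6, at 0.0940, 0.124 and 0.147. With 4 libraries this is a description only.

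Other regulators of the epidermis gave no call either. Of 60 listed genes, which include Notch pathway, AP-2, C/EBP, nuclear receptor and chromatin factors, 35 were tested and 0 were called, with 24 log2 fold changes above 0, 11 below and a median of 0.15. The largest fitted changes were those of Satb1, Ehf and Dnmt1. Satb1, a chromatin organiser and p63 target, was counted 3 and 1 times in the knockout and 27 and 33 times in the floxed libraries, just short of the threshold (edgeR adjusted p 0.0736). Ehf, an ETS factor of differentiating epithelia, was counted 65 and 4 times in the knockout, compared with 1 and 16 times (adjusted p 0.363). Dnmt1, a maintenance DNA methyltransferase, had 34 and 2 against 5 and 14 (adjusted p 0.741). For Ehf and Dnmt1, as for Prdm1 and Trp63, cKO replicate 1 stood far above cKO replicate 2.

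Of 16 described targets of the members, 10 were tested and 0 were called, with a median log2 fold change of -0.36. Besides Satb1, the largest changes were in Krt14, the basal keratin and p63 target, and in Dsg1a, the desmosomal cadherin described as a GRHL1 target. Krt14 was counted 1077 and 267 times in the knockout and 174 and 271 times in the floxed libraries, with a log2 fold change of 2.04 and a standard error of 0.44 (edgeR adjusted p 0.0507). Dsg1a was counted 257 and 81 times, compared with 430 and 1020, with a log2 fold change of -1.51 and a standard error of 0.43 (adjusted p 0.184). Dsg1b, its neighbour and close paralog, was at 0.10. How reads shared by these paralogs were counted is not given in the sources used here. Agpat5, a GATA3 target in lipid synthesis, was counted 189 and 47 times, compared with 44 and 223, and its log2 fold change was 0.45 (adjusted p 0.936). Myc, a target of PRDM1 and OVOL1 repression, had at most 2 counts in any library.

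Genes that mark the keratinocyte layers passed the test in a few cases. Of 28 tested genes of differentiated keratinocytes (32 listed), 3 were called higher and 0 lower, with 22 log2 fold changes above 0 and a median of 0.50. Flg, encoding the barrier protein filaggrin, was counted 2218 and 479 times in the knockout, compared with 20 and 98 times (log2 fold change 5.07, standard error 0.62, edgeR adjusted p 0.000593). Hrnr, encoding hornerin, was counted 403 and 43 times, compared with 16 and 56 (2.99, 0.60, adjusted p 0.0329). Casp14, a filaggrin-processing protease, was counted 48 and 11 times, compared with 0 and 2 (adjusted p 0.0123). Of 12 tested basal keratinocyte genes (16 listed), 1 was called higher, Postn, counted 57 and 19 times compared with 7 and 11 times (log2 fold change 2.61, standard error 0.53, adjusted p 0.0330). Postn encodes periostin, a matrix protein that fibroblasts also make. Krt15, a basal and hair follicle stem keratin, was at -1.06 (adjusted p 0.526), and the basal list's median was 0.10.

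**Figure D5:**
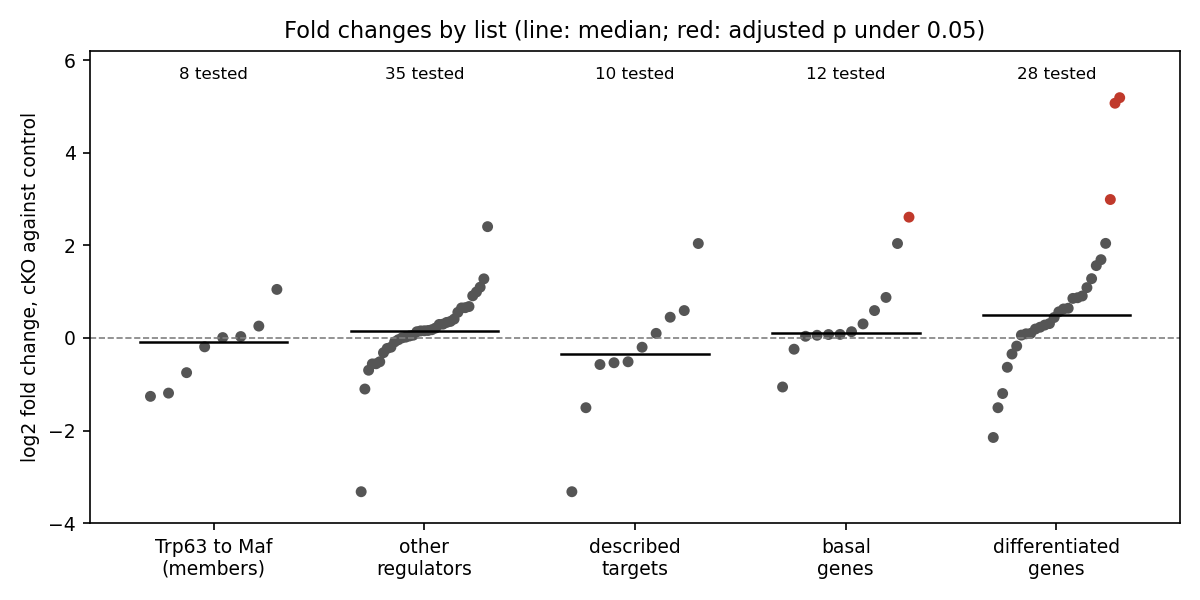
Log2 fold change (cKO against control, edgeR) of each tested gene in the 8 tested regulators and in 4 comparison lists, sorted within each list, with a line at the list's median and red points for an adjusted p under 0.05. Called genes appear only among the basal (1) and differentiated (3) keratinocyte genes, and the regulators lie between -1.26 and 1.05.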

How the data were processed

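RNA from dorsal epidermis was counted in 2 cKO and 2 control libraries. Libraries were made with the QIAseq UPX 3' Transcriptome Kit, per the labels' protocols. The authors deposited raw counts per gene with exon positions per the file headers. Trim Galore 0.6.7, Trimmomatic 0.39, cutadapt 3.7, STAR 2.7.10a, featureCounts 2.0.1 and the build GRCm39 are named in the submitters' processing notes. Collapsing of molecular identifiers, the strand setting and the treatment of reads with several alignments are not given in the sources used here. Gene coordinates are those of the deposited table, and 0 per-sample columns were left unused.

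Counts were fitted in edgeR 4.0.16 (R 4.3.3) over the whole table, with filterByExpr (minimum count 10, minimum total 15), TMM scaling, glmQLFit, glmQLFTest and genotype as the only term. Standard errors are the absolute log2 fold change over the square root of F. The fit was checked on simulated data. DESeq2 1.42.0, limma-voom (limma 3.58.1), other scalings and filters, the replicate number as a block and each library left out were alternatives. Near-identical copies were searched with blastn 2.17.0 in GENCODE M21 transcripts. Beyond the antisense genes Gm31166 and Gm15655, none was found at 95% identity over 150 bases. Members and lists were chosen with earlier results of these data known. All members are named. From each of the 4 comparison lists, called genes and the 3 largest fitted changes among genes averaging at least 10 CPM are named. The marker lists are given by sums, a departure from the written rule, which named genes there too. Other genes named were chosen after their values were seen.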

Additional observations from a re-analysis of the deposited data

How the results depend on the processing

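No member passed the threshold in any of the 13 alternatives fitted, and Gata3, Ovol1 and Maf kept log2 fold changes below 0 in each, from -1.44 to -0.41, -1.69 to -0.30 and -2.42 to -0.81. Zfp750, fitted without a count filter, ran from -1.36 to -0.51 over 11 alternatives. Klf4 and Trp63 lay near 0 and changed sign with small shifts. Trp63 was at -0.18 with library totals, -0.0234 without a count filter, -0.000596 with a mean of at least 10 CPM, -0.22 under the replicate block and -0.125 in limma-voom. Klf4 was at -0.00481 with upper quartile factors, -0.23 with library totals, -0.0640 without a count filter, -0.0339 with a mean of at least 10 CPM, -0.0132 under the replicate block and -0.00244 in limma-voom. Library totals moved the median of all tested genes to -0.24 and the absence of a count filter moved it to -0.15, so Klf4 and Trp63 lay slightly above that median in both. With 1 library left out, the log2 fold change ran from -1.245 to 0.60 for Trp63, -0.48 to 0.62 for Klf5, -0.43 to 0.30 for Klf4, -0.63 to 0.52 for Grhl1 and -0.61 to 2.93 for Prdm1. The basal fate ratio of shares, -0.15 on the log2 scale, ran from -1.26 to 0.47. The terminal differentiation ratio, -0.44, ran from -1.03 to -0.02.

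Over all genes, 28 were called higher and 8 lower. The counts were 49 and 26 without a count filter, 12 and 3 in limma-voom, 16 and 1 under the replicate block, 26 and 15 on library totals, and 40 and 15 among genes averaging at least 10 CPM. With 1 library left out they ran from 34 to 59 higher and from 8 to 34 lower. The cause of these shifts was not tested. The labels do not say whether same-numbered libraries were paired, and deviations of same-numbered libraries correlated at -0.20 across genes. A crossed replicate block, chosen after seeing the data, gave 90 higher and 57 lower genes, 0 of them members, and put Trp63 at -0.11 and Klf4 at -0.0147. Depth limits Grhl3, Zfp750 and cKO replicate 2 most.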
